A study of Mus musculus with 6 samples.

Results

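The 7 genes described here encode carriers that move glutamine across the membranes of brain cells: Slc38a1 and Slc38a2 (system A), Slc38a3 and Slc38a5 (system N), Slc38a7, Slc1a5 and Slc6a17. They were chosen by name, and all 7 were found among the 21878 genes of the deposited tables. The data are bulk RNA sequencing of prefrontal cortex without cell sorting, with 1 library per mouse. The Gls1_CamkIIaCre group (3 mice) carried CamKIIα-Cre and a single floxed Gls1 allele next to a wild-type one, and the control group (3 littermates) carried CamKIIα-Cre with both Gls1 alleles intact, so Cre was common to both groups. Mice with both alleles floxed were not viable, per the series description, and the heterozygotes used are mosaic. The CamKIIα promoter drives Cre in forebrain excitatory neurons, so the tissue also holds many cells outside its reach. The sources used here give neither age nor sex. The comparison asks how transcripts of these carriers differ between the 2 genotypes.

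Glutamate released at synapses is cleared mainly by astrocytes, where glutamine synthetase turns it into glutamine. System N carriers release that glutamine from astrocytes in exchange for protons and together with sodium, and system A carriers bring it into neurons with sodium. In the neuron it is turned back into glutamate, which is loaded into vesicles or made into GABA. Slc1a5 is a sodium-dependent exchanger of neutral amino acids, Slc38a7 exports glutamine and asparagine from lysosomes in human cells, and Slc6a17 loads neutral amino acids into synaptic vesicles.

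The libraries held 17987807 to 19330961 counts, and 14440 genes passed the filter on low counts. Levels are given in CPM, which are counts scaled by library size and by TMM, a between-library factor. The threshold for a call was 0.05 on the p adjusted over all tested genes by Benjamini-Hochberg, and 1190 genes (8.24%) passed it, 571 of them higher and 619 lower. The striatum marker list, which other parts of the forebrain would supply, had a summed level of 431 to 489 CPM in Gls1_CamkIIaCre libraries and 980 to 1571 CPM in control libraries, with 13 of 15 genes lower, led by Serpina9, Strip2, Gpr6, Isl1, Drd2 and Adora2a (4 called without Gls1_CamkIIaCre 1 or without Gls1_CamkIIaCre 2, and 5 without Gls1_CamkIIaCre 3 or without control 3). The part of this difference in the results below was not tested.

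None of the 7 carriers passed that test. In edgeR, 0 of 7 members were called, against the 8.24% of all tested genes, and DESeq2 and limma voom also called 0. At an unadjusted edgeR p under 0.05 there were 3 of 7 (Slc1a5, Slc38a5 and Slc38a7), where all tested genes had 22.4%. The median log2 fold change of the members was 0.037, beside -0.0024 over all tested genes. The 4 abundant carriers Slc6a17, Slc38a1, Slc38a2 and Slc38a3 lay close to 0, and the 2 scarce ones, Slc38a5 and Slc1a5, had the largest differences of the 7, in opposite directions. The CPM of the groups did not overlap for 3 of 7 members, beside 26.7% of all tested genes. Slc38a2 and Slc38a5 were the 2 that lay higher (13.1% of all tested genes did), and Slc1a5 was the 1 that lay lower (13.6%). In FPKM (fragments scaled by transcript length and library size, as deposited) the groups were apart for 3 of 7 (Slc38a3, Slc1a5 and Slc6a17, all lower), beside 27.6% of all tested genes. With 7 members, these counts do not set the carriers apart from other genes.

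**Figure D1:**
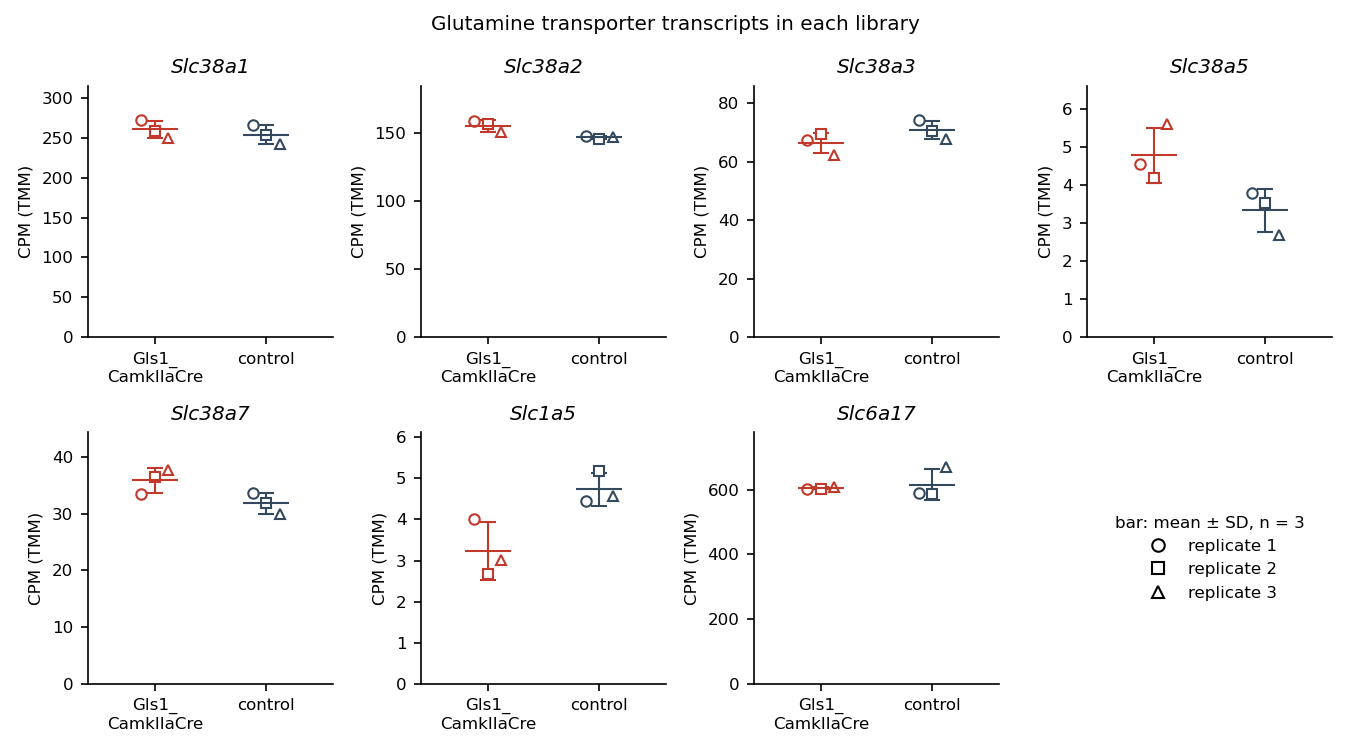
TMM-scaled CPM of the 7 carriers in each library, Gls1_CamkIIaCre left and control right, with the mean ± SD (n = 3 each) and 1 symbol per replicate number. Every axis starts at 0. Slc1a5 lies lower and Slc38a5 higher in all 3 Gls1_CamkIIaCre libraries, while Slc38a1 and Slc38a3 overlap.

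Per transcript length the carriers covered a wide range, and the order was led by the vesicular one. In FPKM, Slc6a17 averaged 75.8 over the 6 libraries, Slc38a2 27.3, Slc38a1 25.9, Slc38a3 16.5, Slc38a7 7.46, Slc38a5 2.05 and Slc1a5 1.31. Slc6a17 stood above 96% of all tested genes and Slc1a5 above 22.1%. Slc38a2 and Slc38a1 had overlapping ranges, at 26.3 to 29.0 and 24.2 to 27.5 FPKM, and Slc38a2 was the higher in 5 of 6 libraries. Slc38a5 and Slc1a5 also overlapped over the 6 libraries, at 1.35 to 2.82 and 0.856 to 1.65 FPKM, and Slc38a5 was the higher of the pair in 5 of 6. The ranges of the other neighbours in the order were separate. The sum of the 7 was 157, 154 and 153 FPKM in Gls1_CamkIIaCre libraries, against 159, 155 and 160.3 FPKM in control libraries, and Slc6a17 alone made up 47.3% to 48.4% of it in Gls1_CamkIIaCre and 47.2% to 51.9% in control.

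**Figure D2:**
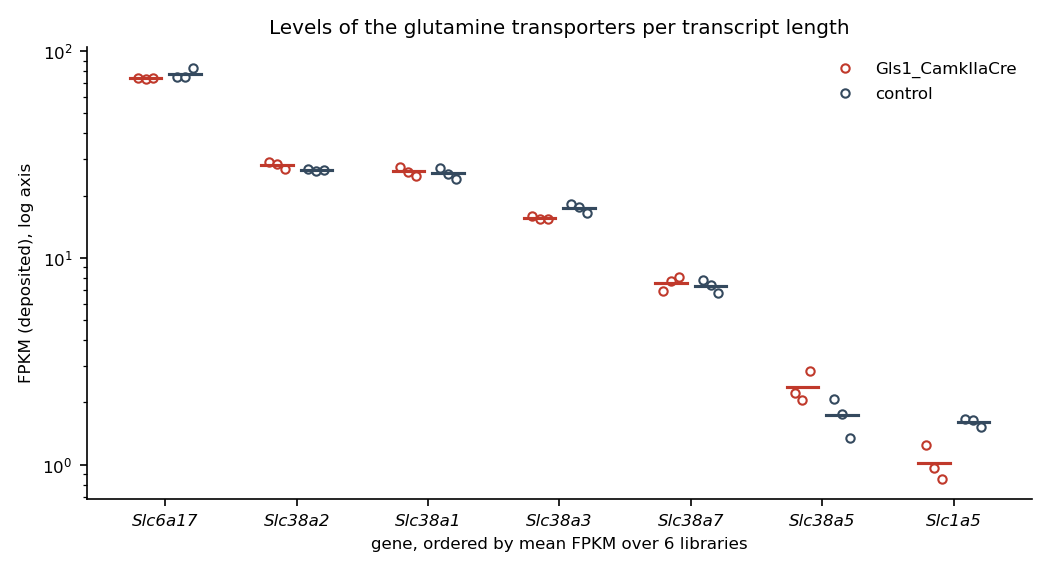
Deposited FPKM of each carrier on a log axis, ordered by the mean over the 6 libraries, with Gls1_CamkIIaCre left of control. Points are libraries and lines are means (n = 3 each). The order runs from Slc6a17 at 75.8 FPKM to Slc1a5 at 1.31 FPKM, and the ranges of Slc38a2 and Slc38a1, and of Slc38a5 and Slc1a5, overlap.

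The longest-coding transcripts of these carriers shared little sequence with transcripts of other genes. In the GENCODE M21 annotation (GRCm38, the build of the deposited tables) no other gene overlaps any of the 7 on either strand. Between the longest coding sequences of the 7, the pair of highest identity was Slc38a3 and Slc38a5, at 66.9% of aligned positions. Pairs of unrelated carriers had 53.2% to 61.0% by the same alignment. The longest run of identical bases in any pair was 26, found between Slc38a3 and Slc38a5 and between Slc38a1 and Slc38a3. These stretches are shown because they are where reads of the carriers are most alike. Each is 100 bases of coding sequence on the gene's own strand, with the shared run in capitals. The first pair lies in exon 4 of both genes, at chr15:96609867-96609966 (minus strand) for Slc38a1 and chr9:107658648-107658747 (minus strand) for Slc38a3, with 77 of 100 bases identical.
Slc38a1: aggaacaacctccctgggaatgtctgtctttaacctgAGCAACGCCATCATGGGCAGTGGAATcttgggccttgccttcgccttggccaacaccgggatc
Slc38a3: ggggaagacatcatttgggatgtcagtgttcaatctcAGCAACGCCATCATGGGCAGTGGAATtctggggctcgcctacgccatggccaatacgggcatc

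The second pair spans exons 10 to 12 of both genes, at chr9:107655667-107656100 (minus strand, introns included) for Slc38a3 and chrX:8276868-8277711 (plus strand, introns included) for Slc38a5, with 74 of 100 bases identical.
Slc38a3: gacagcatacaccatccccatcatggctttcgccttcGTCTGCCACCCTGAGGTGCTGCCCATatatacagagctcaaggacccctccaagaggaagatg
Slc38a5: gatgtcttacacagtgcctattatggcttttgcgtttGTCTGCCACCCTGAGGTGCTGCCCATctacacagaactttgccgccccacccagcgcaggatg

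Outside the runs the bases differ every few positions. Of the 31-base words of each longest-coding transcript, none of Slc38a3, Slc38a5, Slc38a7 or Slc1a5 occurred in a transcript of another gene, and the share was 0.0276% for Slc38a1, 0.0648% for Slc38a2 and 0.271% for Slc6a17. Read length and the authors' treatment of shared reads are unknown from the sources used here.

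The system A carriers, which take glutamine into neurons, differed little between the groups. Slc38a1 (NCBI gene 105727, chr15:96571418-96642913, minus strand) had 272, 259 and 250.3 CPM in Gls1_CamkIIaCre cortex, against 267, 253 and 242 CPM in control cortex. The ranges of the groups overlapped, with the highest value in Gls1_CamkIIaCre and the lowest in control. Its log2 fold change was 0.037 ± 0.043 (SE, edgeR adjusted p = 0.679), with a 95% interval that runs from -3.64% to 9.24%. Slc38a2 (NCBI gene 67760, chr15:96687392-96699730, minus strand), which lies 44478 bases from Slc38a1 and is the family member known for induction by amino acid shortage, had 159, 156 and 150.3 CPM in Gls1_CamkIIaCre cortex, against 147, 145 and 147 CPM in control cortex. Every Gls1_CamkIIaCre library lay above every control library, by a small margin. Slc38a2 averaged 155 ± 4.34 CPM in Gls1_CamkIIaCre and 146 ± 0.984 CPM in control (SD, n = 3 each). The log2 fold change was 0.083 ± 0.041 (SE, edgeR adjusted p = 0.233), with an interval of -0.0015 to 0.17, so a rise above 12.3% lies outside it. In FPKM the groups met, as the lowest Gls1_CamkIIaCre value and the highest control value were both 26.91.

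The system N carriers, the route of glutamine out of astrocytes, pointed in different directions, and neither passed. Slc38a3 (NCBI gene 76257, chr9:107650634-107669530, minus strand), the main system N carrier of astrocytes, had 67.4, 69.3 and 62.4 CPM in Gls1_CamkIIaCre cortex, against 74.1, 70.4 and 67.8 CPM in control cortex. The groups overlapped, as the lowest control library lay below the highest Gls1_CamkIIaCre library. The log2 fold change was -0.093 ± 0.053 (SE, edgeR adjusted p = 0.323), with an interval from -13.2% to 1.25%. In FPKM Slc38a3 had 15.9, 15.4 and 15.4 in Gls1_CamkIIaCre cortex, against 18.3, 17.6 and 16.6 in control cortex, which do not overlap, and limma on log2(FPKM + 1) gave -0.16 with an adjusted p of 0.0837. FPKM values lay lower in Gls1_CamkIIaCre libraries as a whole, with sums over all genes of 238924 to 243144, against 249602 to 252272 in control libraries.

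Slc38a5 (NCBI gene 209837, chrX:8271133-8280179, plus strand) is a second system N carrier that in brain is known from astrocytes and is found in many other tissues. It had 85, 75 and 106 counts in Gls1_CamkIIaCre cortex, against 74, 67 and 50 counts in control cortex. These are 4.55, 4.18 and 5.59 CPM in Gls1_CamkIIaCre and 3.78, 3.51 and 2.69 CPM in control, without overlap. The log2 fold change was 0.52 ± 0.19 (SE, edgeR adjusted p = 0.0907), with an interval from 0.13 to 0.91, and the value was positive under all 16 alternatives and called under none of them. Exact Poisson 95% intervals for the counts, which cover counting error only, ran from 59 to 94 for the lowest Gls1_CamkIIaCre library and from 58.1 to 92.9 for the highest control library, so the libraries nearest to each other cannot be separated at this depth. In FPKM the groups overlapped, at 2.23, 2.05 and 2.82 in Gls1_CamkIIaCre cortex and 2.08, 1.76 and 1.35 in control cortex.

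Slc1a5 (NCBI gene 20514, chr7:16781340-16798274, plus strand), the exchanger also known as ASCT2, was the member of smallest p. It had 75, 48 and 57 counts in Gls1_CamkIIaCre cortex, against 87, 99 and 85 counts in control cortex, or 4.02, 2.67 and 3.01 CPM in Gls1_CamkIIaCre and 4.44, 5.19 and 4.57 CPM in control. All Gls1_CamkIIaCre libraries lay below all control libraries, with Gls1_CamkIIaCre 1 nearest to them. It averaged 3.23 ± 0.699 CPM in Gls1_CamkIIaCre and 4.73 ± 0.398 CPM in control (SD, n = 3 each). The log2 fold change was -0.55 ± 0.19 (SE, edgeR adjusted p = 0.0742), with an interval from -47.7% to -10.6%. The call depended on the analysis: limma on log2(FPKM + 1) gave -0.37 with an adjusted p of 0.0387, limma on log2(FPKM + 0.1) gave -0.62 with 0.0431, and edgeR without Gls1_CamkIIaCre 1 gave -0.73 with 0.0426, whereas DESeq2 gave -0.55 with an adjusted p of 0.189 and edgeR without Gls1_CamkIIaCre 2 gave -0.43 with 0.268. In FPKM, too, the groups were apart, at 1.25, 0.961 and 0.856 in Gls1_CamkIIaCre cortex and 1.65, 1.64 and 1.52 in control cortex. Slc1a5 was the only one of the 7 whose groups were apart on both scales. Of all tested genes 26.7% were apart in CPM and 27.6% in FPKM, and the share apart on both was not worked out.

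The ratio of Slc38a5 to Slc1a5 was higher in every Gls1_CamkIIaCre library than in any control library. In counts it was 1.13, 1.56 and 1.86 in Gls1_CamkIIaCre cortex, against 0.851, 0.677 and 0.588 in control cortex. In FPKM it was 1.79 to 3.29 in Gls1_CamkIIaCre and 0.884 to 1.26 in control. Counts of different genes also depend on transcript length, so the count ratio is read only between libraries and says nothing of which gene is the more abundant. The pair was set side by side after the values of both genes were known, and no test is given. In CPM Slc38a5 lay higher and Slc1a5 lower without overlap, so groups apart in the count ratio followed from those values. The count ratio is therefore no further result.

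Slc38a7 (NCBI gene 234595, chr8:95835920-95853539, minus strand), the lysosomal carrier, had 33.5, 36.6 and 37.8 CPM in Gls1_CamkIIaCre cortex, against 33.7, 32.0 and 30.0 CPM in control cortex. The groups overlapped only through Gls1_CamkIIaCre 1 and control 1. Its log2 fold change was 0.17 ± 0.068 (SE, edgeR adjusted p = 0.123), with an interval from 2.24% to 24.2%. On log2(FPKM + 1) the difference shrank to 0.038 (limma adjusted p = 0.798). The 2 tables relate differently to each other in the 2 groups for this gene and others. The length implied by dividing counts, scaled to library size, by FPKM averaged 4.72 kb in Gls1_CamkIIaCre and 4.36 kb in control for Slc38a7. In the same order it was 4.24 and 4.07 kb for Slc38a3 and 2.01 and 1.94 kb for Slc38a5. For Slc1a5 it was 3.15 and 2.96 kb, and for Slc6a17 8.14 and 7.94 kb. It was not longer in Gls1_CamkIIaCre for Slc38a1 (9.91 and 9.95 kb) or Slc38a2 (5.50 and 5.53 kb). A longer implied length means a lower FPKM for the same scaled counts, so the lower FPKM of Slc38a3, Slc1a5 and Slc6a17 include this shift. The cause was not tested.

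Slc6a17 (NCBI gene 229706, chr3:107467543-107518018, minus strand), the carrier of synaptic vesicles, had 601, 603 and 608 CPM in Gls1_CamkIIaCre cortex, against 589, 587 and 669.9 CPM in control cortex. The Gls1_CamkIIaCre libraries lay within 1 narrow band, inside the range of the controls, and control 3 stood above the other 5 libraries. The log2 fold change was -0.027 ± 0.045 (SE, edgeR adjusted p = 0.785), with an interval from -8.11% to 4.80%. Without control 3 it was 0.039 (edgeR adjusted p = 0.631), on the other side of 0. Slc6a17 was apart in FPKM, at 74.3, 73.0 and 74.0 in Gls1_CamkIIaCre cortex and 75.1, 75.1 and 83.2 in control cortex, but not in CPM.

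**Figure D3:**
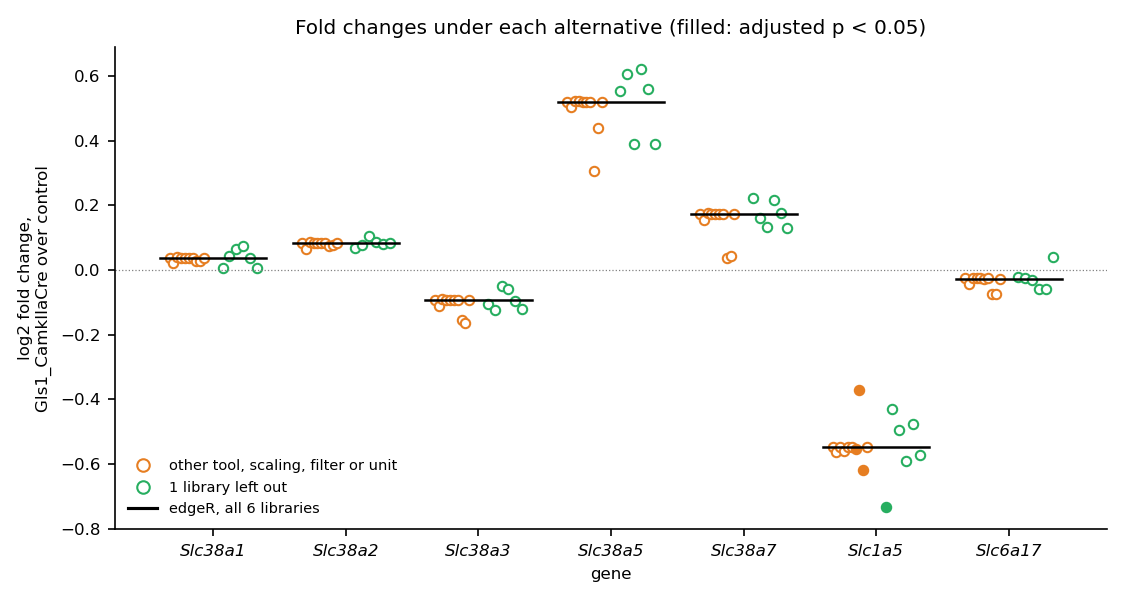
Log2 fold change of each carrier (Gls1_CamkIIaCre over control) with edgeR on all 6 libraries (black line), under 10 other tools, scalings, filters or units (orange) and with 1 library left out (green). Filled points have an adjusted p under 0.05. Filled points appear for Slc1a5 alone, in 4 of 16 alternatives, and a single point of Slc6a17 crosses 0.

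Set against each other within a library, the neuronal and the astrocytic carrier gave a higher ratio in all 3 Gls1_CamkIIaCre mice than in any control mouse. The FPKM ratio of Slc38a1 to Slc38a3 was 1.72, 1.70 and 1.62 in Gls1_CamkIIaCre cortex, against 1.49, 1.45 and 1.46 in control cortex. In CPM it was 4.04, 3.74 and 4.01 in Gls1_CamkIIaCre and 3.60, 3.60 and 3.57 in control, so the groups were apart on both scales. This ratio was formed with the results for both genes known, and it is given as a description without a test. How many other pairs of genes are apart in this way was not worked out. Neither gene was called or apart in CPM, and the FPKM ratio includes the shift in implied length of Slc38a3 given above.

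Several marker lists of brain cell types held called genes, to be read against the 4.29% of all tested genes called lower and the 3.95% called higher. The astrocyte list had 5 of 14 genes lower and none higher (2 called without Gls1_CamkIIaCre 2 or without control 1, and 3 without control 2), with a median log2 fold change of -0.14 and a summed level of 5902 to 6055 CPM in Gls1_CamkIIaCre, against 6067 to 6394 CPM in control. The 5 were Kcnj10, Gjb6, Gja1, S100b and Aldoc. Slc1a3, Fgfr3 and Sox9, which were not called, had positive log2 fold changes of 0.085, 0.049 and 0.014. The other uncalled genes of the list had negative values, the largest in Gfap (-0.62, edgeR adjusted p = 0.078). The CPM of Slc1a3 were higher in every Gls1_CamkIIaCre library than in any control library, as for 13.1% of all tested genes. The endothelial and mural list had 6 genes lower (among them Tagln, Pdgfrb, Cldn5, Vtn and Itm2a) and 1 higher (Slc2a1) of 15 (3 called without Gls1_CamkIIaCre 2), at 642 to 679 CPM in Gls1_CamkIIaCre and 683 to 751 CPM in control. The excitatory neuron list had 2 of 10 higher, Fezf2 and Neurod2 (none called without Gls1_CamkIIaCre 2 or without control 2, 1 without Gls1_CamkIIaCre 3 or without control 1, and 4 without control 3), at 6353 to 7105 CPM in Gls1_CamkIIaCre and 6237 to 6606 CPM in control. These ranges overlapped, and the list median was 0.10. Rorb, Slc17a7, Nrgn and Cux2, which were not called, had log2 fold changes of -0.084, -0.019, -0.014 and -0.00079. The other uncalled genes of this list had positive values. Meningeal and fibroblast markers, 6 of 9 lower (Fmod, Pcolce, Col1a2, Dcn, Col1a1 and Lum; 3 called without Gls1_CamkIIaCre 2), had 667 to 718 CPM in Gls1_CamkIIaCre and 755 to 903 CPM in control. The calls in the other lists were all lower: 3 of 10 interneuron genes (Gad2, Sst and Slc32a1), 3 of 9 oligodendrocyte genes (Mag, Ugt8a and Cnp; 1 to 7 when a library was left out), 3 of 7 of oligodendrocyte precursors (Cacng4, Olig2 and Olig1), 3 of 12 of microglia (C1qa, C1qb and C1qc), 2 of 5 of blood (Hbb-bs and Hba-a2; 0 to 2 when a library was left out) and 0 of 5 of choroid plexus (smallest p in Foxj1 and Kl). Genes that were not called went both ways in the interneuron, oligodendrocyte precursor and microglia lists. In the oligodendrocyte list every uncalled gene had a negative log2 fold change, beside a list median of -0.22. Among interneuron genes Vip had a log2 fold change of 0.13, Adarb2 0.14 and Reln 0.076, beside a list median of -0.14. P2ry12 of the microglia list had 0.094, beside a list median of -0.17. None of the marker genes was at 0 in every library. In bulk tissue, fewer cells of a type and less RNA per cell cannot be told apart, and the part of cell content in the values of Slc38a3, Slc38a5 and Slc1a5 was not tested. Beside the astrocyte list, the log2 fold changes of the system N carriers, neither of which passed the test, were -0.093 for Slc38a3 and 0.52 for Slc38a5.

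**Figure D4:**
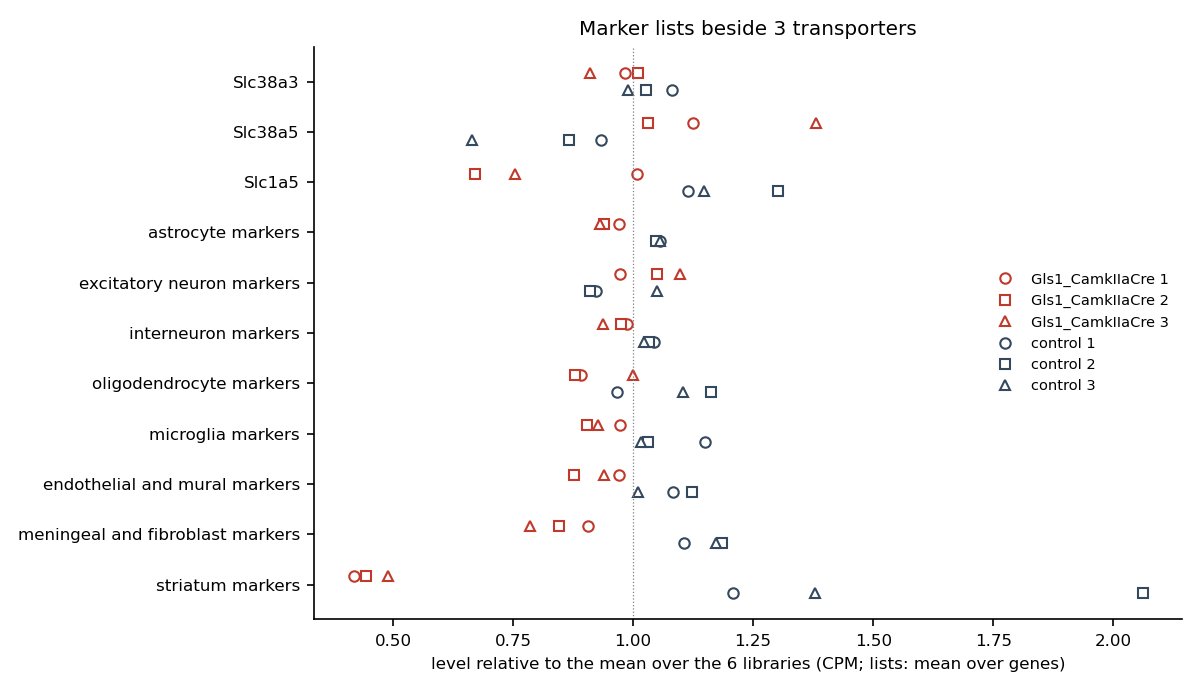
Level of Slc38a3, Slc38a5, Slc1a5 and 8 marker lists in each library relative to the mean over the 6 libraries, in CPM, with Gls1_CamkIIaCre above control. For lists, the value is the mean over the genes of the list. Striatum markers spread most, from 0.418 to 0.489 in Gls1_CamkIIaCre and from 1.21 to 2.06 in control.

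Among the rest of the family, 0 of 5 tested genes were called by edgeR, DESeq2 or limma voom, and 0 had an unadjusted edgeR p under 0.05 (Slc38a8 did not pass the filter on low counts). The 2 of smallest p were Slc38a10, with a log2 fold change of -0.071, and Slc38a6, with 0.13. Of 15 other carriers of neutral amino acids 10 were tested, and 1 was called, where 3.95% of all genes were called higher. This was Slc3a2, the heavy chain that brings the large neutral amino acid carriers to the membrane, at 112 ± 5.05 CPM in Gls1_CamkIIaCre and 100.5 ± 1.67 CPM in control (SD, n = 3 each). Its log2 fold change was 0.15 ± 0.045 (SE), at an edgeR adjusted p of 0.0443. That call was lost with DESeq2 (adjusted p = 0.0814), limma voom (0.0586) and when any single library was left out, where the edgeR adjusted p lay between 0.0552 and 0.173. The list had a median of 0.10 on the log2 scale, or 0.051 with DESeq2 and 0.042 with no filter on low counts.

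In the glutamate, glutamine and GABA cycle, 3 of 21 genes fell and none rose, where 4.29% of all genes were called lower (1 called without control 2). All 3 were genes of the GABA branch. Gad2, a GABA-synthesising enzyme, averaged 243 ± 17 CPM in Gls1_CamkIIaCre and 301 ± 11.2 CPM in control (SD, n = 3 each). Its log2 fold change was -0.31 ± 0.047 (SE), at an edgeR adjusted p of 0.000631. Abat, which breaks GABA down, had a log2 fold change of -0.18 (edgeR adjusted p = 0.0104, but 0.0821 without Gls1_CamkIIaCre 2 and 0.0924 without control 2). Slc32a1, the vesicular GABA transporter, had -0.23 (edgeR adjusted p = 0.0432, but 0.116 without Gls1_CamkIIaCre 1, 0.118 without Gls1_CamkIIaCre 3, 0.133 without control 1 and 0.165 without control 2). Gad2 and Slc32a1 are expressed by striatal neurons as well as by cortical interneurons, and the striatum list was lower in every Gls1_CamkIIaCre library. The part of the striatum markers in these values was not tested. Got2, the mitochondrial aspartate aminotransferase whose gene neighbours Slc38a7 at 10594 bases, stood at a log2 fold change of -0.0071.

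**Figure D5:**
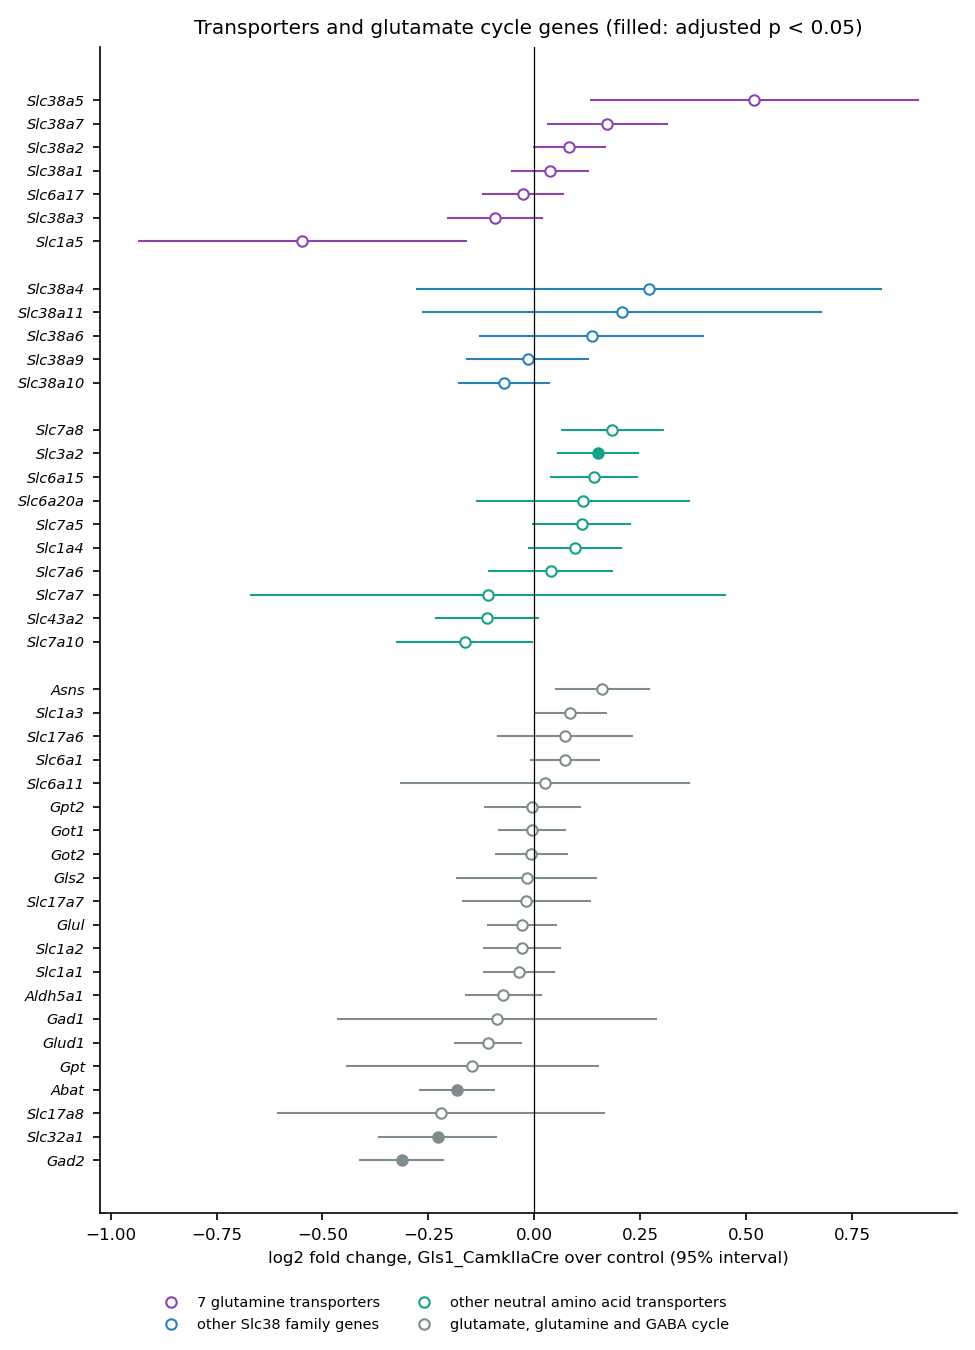
Log2 fold change (Gls1_CamkIIaCre over control, edgeR) with its 95% interval for the 7 glutamine transporters and the tested genes of 3 related lists. Filled points have an adjusted p under 0.05. The 7 transporters are all open, and Gad2, Abat and Slc32a1 are the filled points of the cycle list.

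Genes that respond to amino acid shortage, among which Slc38a2 is a known target, had 1 of 12 tested members called, a share close to the 8.24% of all tested genes. Ddit3, a stress-induced transcription factor, averaged 15.96 ± 1.96 CPM in Gls1_CamkIIaCre and 21.5 ± 0.667 CPM in control (SD, n = 3 each). It differed by -0.43 ± 0.089 (SE) on the log2 scale, at an edgeR adjusted p of 0.00542, or 0.053 without Gls1_CamkIIaCre 2. The median of the list was 0.11 on the log2 scale, in the direction opposite to Ddit3, and 0.068 with DESeq2. At an unadjusted edgeR p under 0.05 there were 6 of the 12 tested, where all tested genes had 22.4%. Besides Ddit3 these were Asns, Slc7a3, Shmt2, Eif2ak4 and Aldh18a1, all higher and none called. Their log2 fold changes were 0.16, 0.37, 0.23, 0.15 and 0.18 in that order. Slc7a11, Phgdh, Psat1 and Chac1, also not called, had negative log2 fold changes of -0.10, -0.096, -0.092 and -0.010. The remaining tested genes of the list had positive values. Of 15 genes of lysosomal amino acid sensing, the pathway that reads the lysosomal pool, 0 were called by edgeR, DESeq2 or limma voom and 4 had an unadjusted edgeR p under 0.05, where all tested genes had 22.4%. The 2 of smallest p, neither of them called, were Rptor, a subunit of mTORC1, with a log2 fold change of 0.14, and Lamtor4, a subunit of the lysosomal scaffold, with -0.21.

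Because no carrier was called, likeness across libraries was worked out for Slc1a5, the member of smallest p. The measure was the root-mean-square difference of log2 CPM, centred on each gene's mean over the 6 libraries, among genes at a mean of 10 CPM or more. The 3 nearest genes were Sptssa, a small subunit of serine palmitoyltransferase (0.114), Aebp1, a secreted matrix protein (0.114), and Ddit3 (0.119). All 3 were lower in Gls1_CamkIIaCre cortex, with log2 fold changes of -0.42, -0.56 and -0.43 in that order and edgeR adjusted p of 0.00413, 0.000928 and 0.00542. Being selected for likeness to Slc1a5, they are no independent evidence of its direction.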

How the data were processed

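TRIzol extraction and a SMARTer mRNA-Seq kit were used on prefrontal cortex, per the labels' protocols. Of the values deposited by the authors, one table holds raw counts and the other FPKM, both for the same 21878 genes and 6 libraries. The submitters' processing notes name the build GRCm38 (mm10). Neither the aligner nor the counter, FPKM tool or strand setting is given in the sources used here. No other sample columns were present.

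The test on counts was edgeR 4.0.16, run in R 4.3.3 (TMM, filterByExpr, robust glmQLFit and glmQLFTest), Gls1_CamkIIaCre against control, with p adjusted by Benjamini-Hochberg over the 14440 genes tested. Standard errors are the fold change over the root of F. The script was tested on simulated counts with known changes. Alternatives were DESeq2 1.42.0, limma 3.58.1 (voom, and log2 FPKM plus 1 or 0.1), other scalings and filters (no filter, or a mean of 50 counts), a non-robust fit, the replicate number as a block, and leaving out each library.

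The series description gives 3 mice per group, with 1 library each. Between libraries of 1 group, chi-square per degree of freedom was 2.27 to 4.16, above sampling noise, so none was a duplicate. Both groups separated on principal component 1 (41.4% of the variance). The members and the 16 other gene lists were chosen with earlier results of these data known. Named genes followed a rule: all members, the called members of each list (or the 2 of smallest p), and the 3 genes most like the member of smallest p. Lists with over 6 calls gave the 6 of smallest p. Some uncalled genes of the lists are named as well, where they went the other way or had an unadjusted edgeR p under 0.05. Coordinates, transcripts and overlaps came from GENCODE M21, and coding sequences were aligned with Biopython 1.88. Protein and promoter sequences were not used here. Some genes of these lists are not reported here.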

Additional observations from a re-analysis of the deposited data

How the results depend on the processing

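Of the 7 carriers, 6 stayed uncalled under all 16 alternatives, and Slc1a5 was called in 4. The signs of Slc38a1, Slc38a2, Slc38a3, Slc38a5, Slc38a7 and Slc1a5 held under all 16, and that of Slc6a17 under 15, turning to 0.039 without control 3. Slc1a5 passed at -0.37 on log2(FPKM + 1), at -0.62 on log2(FPKM + 0.1), at -0.55 with the replicate block (edgeR adjusted p = 0.0474) and at -0.73 without Gls1_CamkIIaCre 1, so that 1 member was called in each of these 4. Leaving out a library gave values between -0.73 and -0.43 for Slc1a5, between -0.058 and 0.039 for Slc6a17, between 0.39 and 0.62 for Slc38a5, and 0 or 1 members called. The count of genes called over the whole table was 672 on log2(FPKM + 1) and 733 on log2(FPKM + 0.1), and leaving out a library gave 415 (Gls1_CamkIIaCre 2) to 1098 (control 3). Higher genes made up 48.0% of calls with TMM and edgeR, 36.4% with upper-quartile factors, 18.2% on log2(FPKM + 1) and 17.2% on log2(FPKM + 0.1). The cause was not tested. The replicate numbers do not pair the mice by the labels. Same-numbered mice had correlations of their deviations of 0.147, -0.035 and 0.165, and not every mouse correlated best with its own number. The block gave 1758 calls. With 48 to 106 counts per library, depth limits what can be seen for Slc1a5 and Slc38a5, and counting intervals cover counting error only.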
